A study of Mus musculus with 31 samples.

Results

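In unstimulated mouse splenic B cells, 882 autosomal stretches were each covered by a single Rad21 peak of 2000 bp or more in replicate 1 and overlapped a Rad21 peak of 1000 bp or more in both other replicates. These wide Rad21 stretches are the subject here. They were 882 of the 1824 autosomal peaks of that width in replicate 1, and of its 281542 autosomal peaks in all. Because they were chosen by peak width and overlap in the 3 unstimulated splenic Rad21 libraries, their values there only describe the choice. Their Rad21 in stimulated spleen and in a B lymphoma line, and their NIPBL in every cell type, were not used to choose them.

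Cohesin is a ring-shaped complex that holds DNA and folds it into loops, and Rad21 is the subunit that closes the ring. NIPBL belongs to the factor that loads cohesin onto DNA and drives its movement along it. In most mammalian cells cohesin is mapped as short peaks where it is halted by the DNA-binding protein CTCF, whereas NIPBL is often mapped at active promoters and enhancers.

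Chromatin immunoprecipitation with sequencing (ChIP-seq) was performed on AID-deficient C57BL/6 B cells, which lack the enzyme that begins class switch recombination. The study asks about the part of cohesin-driven loop extrusion in that process. Spleen was represented by primary mature B cells, stimulated with aCD40/IL4 for 48 h or left without stimulation, with 3 Rad21 and 3 NIPBL libraries of each state. CH12F3 is a mouse B lymphoma line. The lines labelled i3CBEs and CH12F3NCdel, names that the labels do not expand, were both of this source. The i3CBEs line gave 3 Rad21 libraries after aCD40/IL4/TGFb for 24 h. CH12F3NCdel, written CH12F3 from here on, gave 4 Rad21 and 2 NIPBL libraries after the same stimulation, and 3 Rad21 and 2 NIPBL libraries without it. AID deficiency is shared by all groups, so nothing here compares cells with and without AID. Spleen and CH12F3 differ in cytokines and in hours of stimulation as well as in cell type, and these cannot be told apart. No label states that replicates came from different animals or cultures. The p-values thus reflect the scatter among the libraries at hand, and that scatter may be technical. Peak lists hold no expression values, so the labelled cell type could not be checked against marker genes.

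Each library was given as a list of peaks with no read counts, so depth is unknown. The lists held between 42659 and 1332862 peaks, and the 20000 strongest peaks of each list on the main chromosomes, ranked by the authors' −log10 p, were compared to remove the effect of list length. These covered between 0.194% and 0.645% of the genome. Unless all deposited peaks are named, "overlapped" below means sharing 1 base or more with one of these strongest peaks, and "covered" is the percent of bases inside them.

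The stretches had a median width of 2868 bp, with the narrowest at 2001 bp, the widest at 38352 bp and 90% under 5354 bp, and together they spanned 3.10 Mb. The authors' fold enrichment over background in unstimulated replicate 1, a value of the peak in its own list, had a median of 7.87 for them and of 8.17 for 656 stretches of 1000 bp to under 2000 bp that met the same overlap rule. A strongest peak overlapped 417 of the 882 in all 3 unstimulated Rad21 libraries, and 208 in none of them. Another class, 10672 narrow Rad21 peaks under 1000 bp, was held to the strongest 20000 in all 3 unstimulated libraries, so its median fold of 16.2 is set by that filter. The 417 wide stretches that meet the same filter had a median fold of 10.6. The widest overlapping peak had a median width of 2419 bp in unstimulated replicate 2 and 1476 bp in unstimulated replicate 3. At the threshold, the narrowest members were 2001 bp at chr1:85103794-85105794, 2001 bp at chr8:123247968-123249968 and 2002 bp at chr13:83747316-83749317. The nearest peaks that met the overlap rule but fell short of 2000 bp, by 1 or 2 bases, were chr16:52059791-52061789, chr4:116792255-116794253 and chr10:39977405-39979402. Coordinates are those of the mm9 build throughout. No mm9 annotation was used here, and genes are named only as background, where a locus is well known.

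The stretches were unevenly spaced. The gap to the next stretch on a chromosome had a median of 245 kb, and the middle 50% of these gaps ran from 19.3 to 2799 kb. Of the 882, 460 (52.2%) had another within 50 kb, which made 159 groups of 2 or more and 69 groups of 3 or more, and 422 stood alone. These spacings were not compared with those of other peaks. Their density ranged from 0.176 per Mb on chromosome 18 to 0.632 per Mb on chromosome 11, with 0.522 on chromosome 19 and 0.517 on chromosome 1. Groups of 13, 8, 8, 7 and 7 stretches were the largest 5 by number and summed width. The group of 13 lay at chr8:19868226-20035935. Those of 8 lay across the MHC class II genes, whose proteins present antigen to helper T cells, at chr17:34393437-34465326, and around Gpr183, a receptor that positions B cells in lymphoid organs, at chr14:122313917-122464265. Those of 7 lay at chr11:3000883-3100062, where the assembled part of that chromosome begins, and at chr1:87484222-87548015, in the region of Sp110 and Sp140, genes of nuclear body proteins that have near-identical copies on this chromosome.

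Outside unstimulated spleen, most of the stretches held no strong Rad21 peak in a given library. A strongest Rad21 peak overlapped 33.2%, 24.4% and 23.1% of them in stimulated splenic replicates 1 to 3. In i3CBEs the shares were 26.9%, 28.3% and 30.3%. In CH12F3 they were 23.8%, 28.0%, 24.7% and 26.9% with stimulation, against 23.8%, 26.9% and 24.8% without it. The share in these 13 libraries thus stayed between 23.1% and 33.2%, whereas in the unstimulated splenic libraries that chose the stretches it was 53.3%, 56.5% and 73.5%. With the 10000 strongest peaks the mean shares were 13.7% in stimulated spleen, 15.2% in i3CBEs and 13.0% in stimulated CH12F3, and with the 40000 strongest 52.3%, 57.0% and 50.5% in the same order. The 656 stretches of 1000 bp to under 2000 bp were close to the wide ones, with 28.2% ± 2.92 in stimulated spleen (SD, n = 3), 29.2% ± 1.45 in i3CBEs (SD, n = 3) and 27.1% ± 0.83 in stimulated CH12F3 (SD, n = 4). Of the narrow Rad21 peaks, 82.6% to 90.8% were overlapped in stimulated spleen, 78.5% to 79.0% in i3CBEs and 79.0% to 82.6% in CH12F3, but these had been picked for strength. Among the 417 wide stretches that meet the same strength filter, the shares were 43.4% to 53.0% in stimulated spleen, 46.5% to 50.6% in i3CBEs and 42.4% to 47.5% in CH12F3. They thus lay above the shares of all 882 and below those of the narrow peaks. These differences between classes were not tested.

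**Figure D1:**
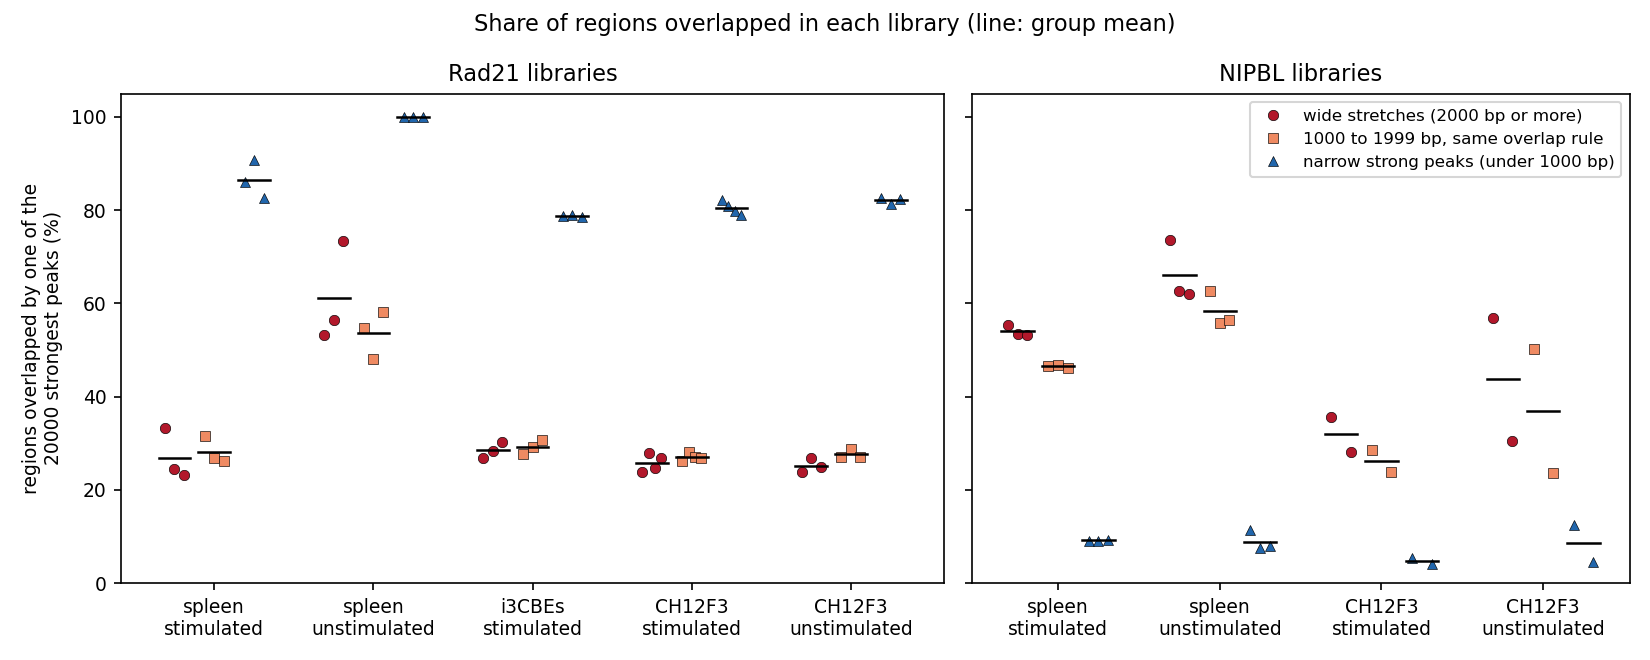
Percent of regions overlapped by one of the 20000 strongest peaks, 1 point per library and a line at each group mean, for Rad21 libraries and NIPBL libraries, with wide stretches, stretches of 1000 bp to under 2000 bp and narrow Rad21 peaks drawn apart. In Rad21 outside unstimulated spleen the wide stretches sit between 23.1% and 33.2% and the narrow peaks, which were picked for strength in unstimulated spleen, above 78%, while in NIPBL the wide stretches sit far above the narrow peaks in every library.

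Strong Rad21 outside unstimulated spleen lay on a minority of the stretches. Of the 882 stretches, 136 (15.4%) were overlapped in all 13 Rad21 libraries outside unstimulated spleen and 448 (50.8%) in none of them. In CH12F3 alone, 164 were overlapped in all 7 Rad21 libraries and 578 in none. Their fold enrichment in unstimulated splenic replicate 1 had a median of 14.5 for the 164 and 7.09 for the 578, although their median widths of 2744 bp and 2854 bp were close. All 3 i3CBEs libraries overlapped 197, and none of the 3 overlapped 564. All 3 stimulated splenic Rad21 libraries overlapped 163, and none overlapped 547. Of the 163 and the 164, 138 stretches were in both.

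Where a strong Rad21 peak was found, it was mostly narrower than the stretch. The stretches were chosen for their width in unstimulated spleen, and that choice by itself favours narrower peaks elsewhere. Among overlapped stretches the strongest overlapping peak had a median width of 352 to 383 bp in the i3CBEs libraries and 573 to 1201 bp in the CH12F3 libraries. In stimulated spleen that median was 609, 1920 and 1137 bp, so that replicate 2 stood above the other two. Between 40.4% and 57.7% of these peaks had their midpoint in the middle one of 3 equal parts of the stretch, over the same libraries. With all deposited peaks counted, the widest peak at a stretch had a median width of 542, 1892 and 1120 bp in stimulated spleen, lists of 149409, 1166191 and 1236385 peaks. It was 216, 191 and 189 bp in i3CBEs, against 704, 522, 622 and 283 bp in stimulated CH12F3, and 658, 583 and 855 bp in unstimulated CH12F3. A peak of 2000 bp or more lay at 26 of the 882 stretches in all 3 stimulated splenic lists and at 29 in all 7 CH12F3 lists. The i3CBEs lists were called against a control of their own, per the peak names in the lists, and its part in their narrower peaks was not tested.

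**Figure D2:**
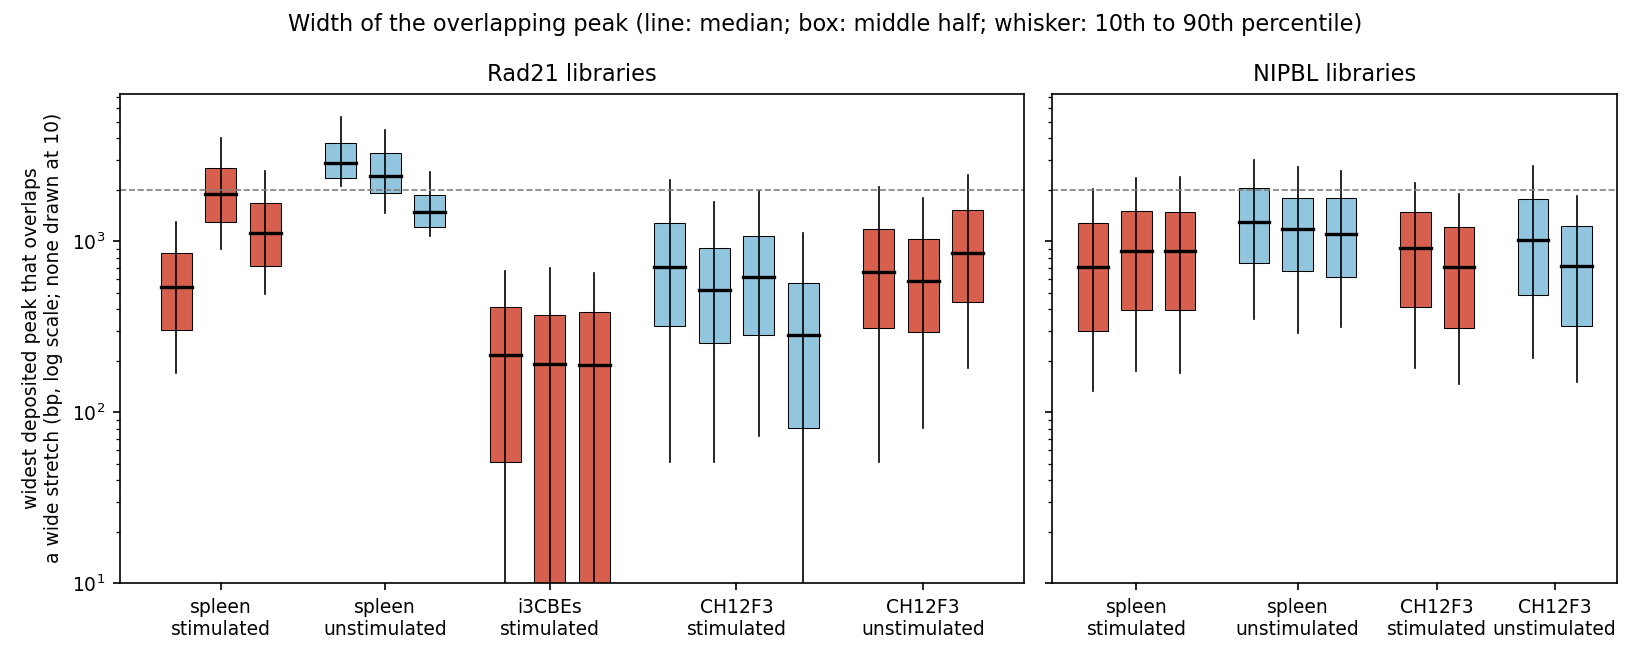
Width in bp, on a log scale, of the widest deposited peak that overlaps each wide stretch, by library, with the median, the middle 50% of stretches and the 10th to 90th percentile; the dashed line marks 2000 bp, the width used in unstimulated splenic replicate 1. Medians outside unstimulated spleen reach 1892 bp in stimulated splenic Rad21 replicate 2 and are lowest in i3CBEs, at 189 to 216 bp.

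NIPBL lay on most of the stretches in spleen. A strongest NIPBL peak overlapped 55.4%, 53.4% and 53.2% of them in stimulated spleen, against 73.6%, 62.7% and 62.0% in unstimulated spleen. In CH12F3 the shares were 35.7% and 28.2% with stimulation, against 56.9% and 30.5% without it. The strongest NIPBL peaks differed in median width, at 68 and 51 bp in stimulated and 664 and 129 bp in unstimulated CH12F3. In spleen these medians were 442, 532.5 and 552 bp with stimulation, against 656, 215 and 254 bp without it. The part of these widths in the shares was not tested. The narrow Rad21 peaks were overlapped by NIPBL at 9.08%, 9.15% and 9.36% in stimulated spleen, against 11.3%, 7.44% and 7.95% in unstimulated spleen. The 417 wide stretches under the same strength filter were overlapped by NIPBL at 46.8%, 43.9% and 44.1% in stimulated spleen, against 72.9%, 58.99% and 57.6% in unstimulated spleen. A wide region catches more peaks by chance of position, so covered bases were compared too. Strongest NIPBL peaks covered 19.4%, 21.1% and 21.2% of a stretch on average in stimulated spleen, against 35.8%, 28.8% and 26.8% in unstimulated spleen. Relative to the share of the genome that those peaks covered, this was 41.2, 39.1 and 38.4 times in stimulated spleen, against 60.6, 64.9 and 60.8 times in unstimulated spleen. The 3 libraries of each state do not overlap on either measure. For the narrow peaks the same ratio averaged 11.6 ± 0.35 in stimulated and 12.5 ± 0.96 in unstimulated spleen (SD, n = 3 each). For the stretches of 1000 bp to under 2000 bp it averaged 47.5 ± 1.02 in stimulated and 71.5 ± 5.79 in unstimulated spleen (SD, n = 3 each). The splenic NIPBL lists name no control, whereas the Rad21 lists do, and the part of this in the NIPBL overlap was not tested.

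In CH12F3, NIPBL replicates differed more than the states. Coverage of the stretches averaged 12.2% ± 3.48 with stimulation and 17.5% ± 10.7 without it (SD, n = 2 each), since replicate 1 without stimulation had 25.04% and replicate 2 had 9.92%. The 2 lists of replicate 1 name no control and the 2 of replicate 2 name one. Each replicate held both states, and in each the library with stimulation had the lower share of stretches overlapped. Relative to the share of the genome that the strongest peaks covered, the order was the other way. That ratio was 50.4 and 50.3 with stimulation in replicates 1 and 2, against 38.8 and 49.0 without it. The strongest peaks of replicate 1 covered 0.292% of the genome with stimulation and 0.645% without it.

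A larger share of wider stretches met NIPBL, while the covered percent differed little with width. Among 301 stretches under 2500 bp, 47.4% ± 1.89 were overlapped in stimulated and 59.5% ± 6.98 in unstimulated spleen, while among 103 stretches of 5000 bp or more the shares were 69.9% ± 1.68 in stimulated and 77.3% ± 4.59 in unstimulated spleen (SD, n = 3 libraries each). Mean coverage of the narrower class was 20.4% ± 0.60 in stimulated and 31.2% ± 4.74 in unstimulated spleen. That of the wider class was 22.3% ± 1.11 in stimulated and 29.3% ± 4.41 in unstimulated spleen.

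**Figure D3:**
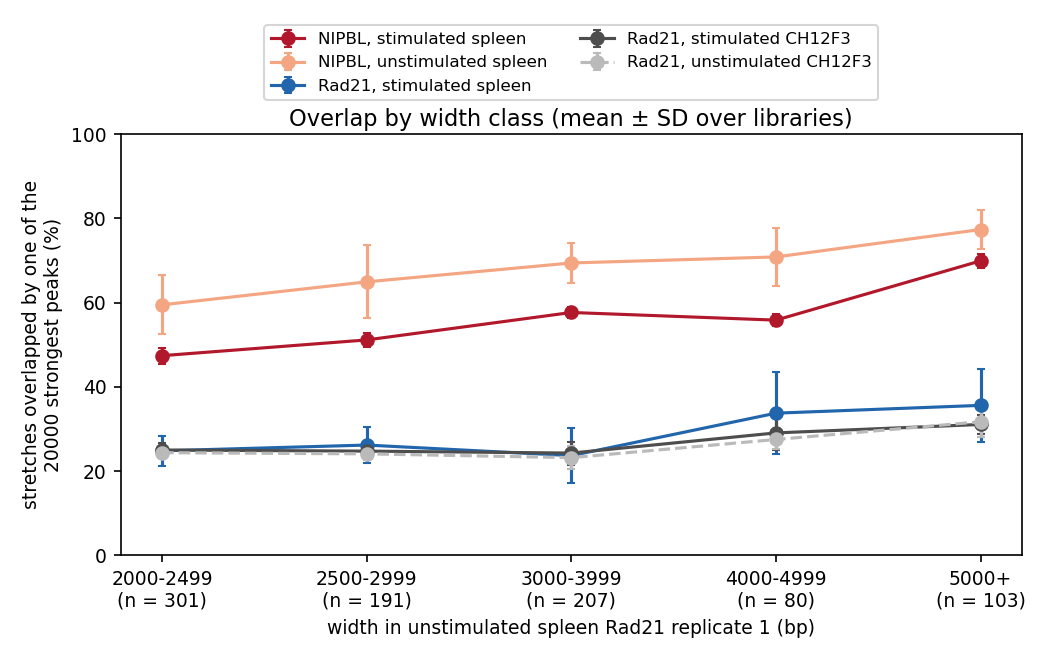
Percent of wide stretches overlapped by one of the 20000 strongest peaks, by width class in bp, mean ± SD over the libraries of each group. In stimulated splenic NIPBL the share is 47.4% for the narrowest class and 69.9% for the widest, and in unstimulated splenic NIPBL 59.5% and 77.3%. In stimulated splenic Rad21 it is 24.8% and 35.6%.

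NIPBL lay on stretches both with and without Rad21 in CH12F3. Of the 164 with Rad21 in all 7 CH12F3 libraries, 98 were overlapped by NIPBL in all 3 unstimulated splenic libraries and 38 in none. Of the 578 without Rad21 in CH12F3, 311 were overlapped by NIPBL in all 3 and 138 in none. Over all 882, NIPBL overlapped 496 in all 3 and 203 in none. No strongest peak overlapped 80 of the stretches (9.07%) in any of the 23 libraries outside unstimulated splenic Rad21, and 23 were overlapped in all 23. Only 1 was covered over 50% or more of its bases in all 23.

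**Figure D4:**
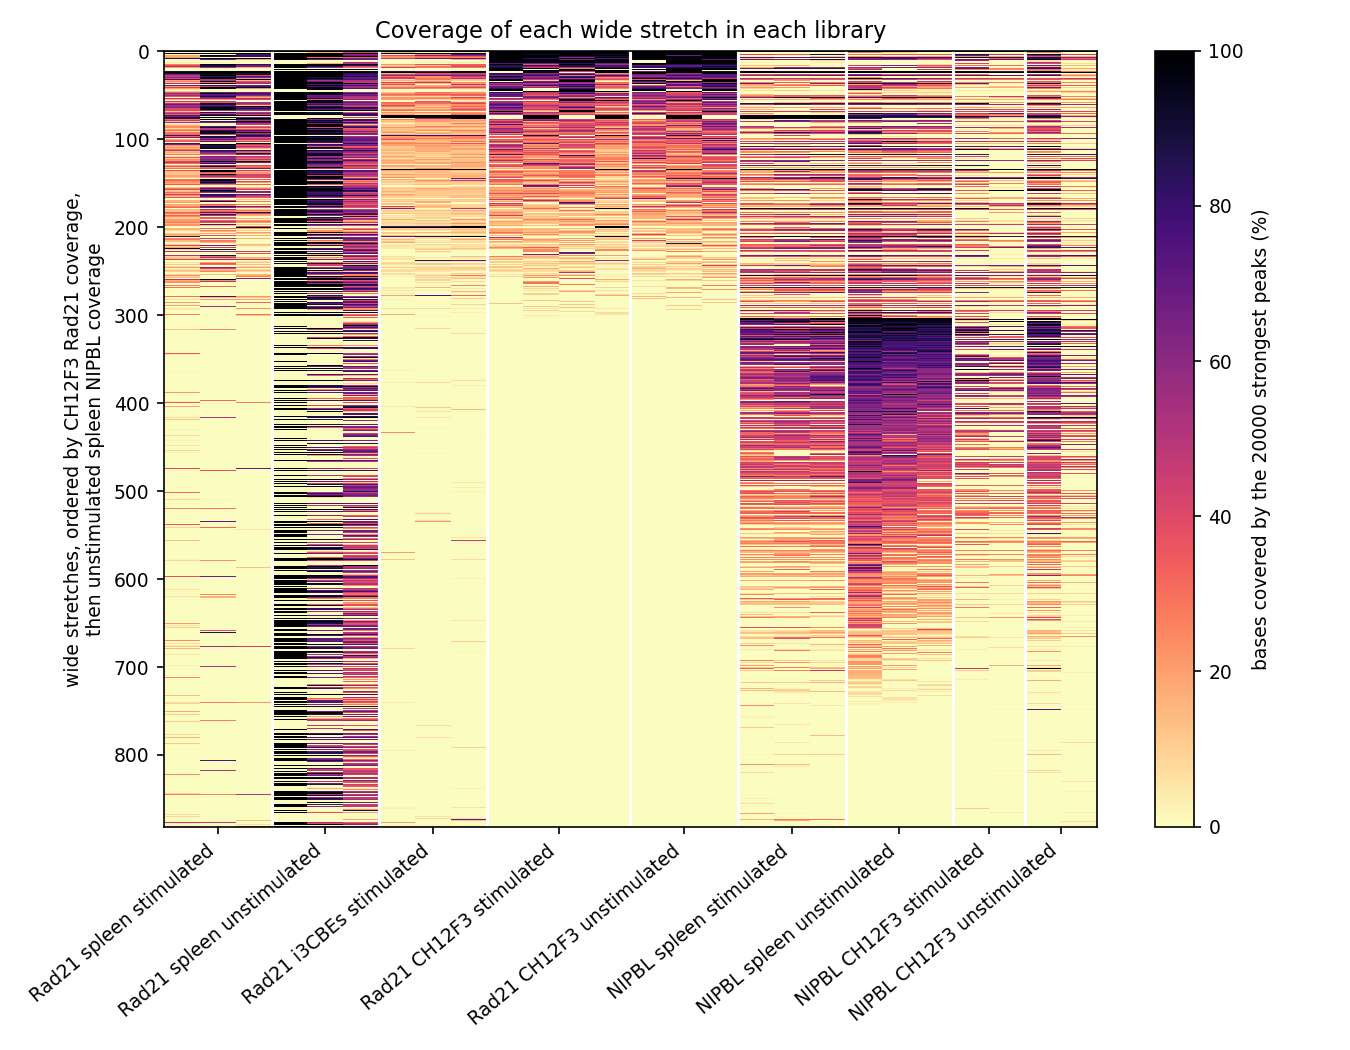
Percent of each wide stretch covered by the 20000 strongest peaks, 1 row per stretch and 1 column per library, rows ordered by CH12F3 Rad21 coverage and then by unstimulated splenic NIPBL coverage. A small block of rows is covered in CH12F3, i3CBEs and stimulated splenic Rad21, and many of the remaining rows show NIPBL coverage in spleen with no such Rad21 coverage.

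Single loci show how the patterns differ. The widest stretch, chr9:2999990-3038341 (38352 bp), lies at the start of the assembled chromosome. It had the highest fold enrichment of all, 708, and was covered over 97.2% to 100% in every library of both antibodies. A 5850 bp stretch at chr17:39979933-39985782, the place of the Rn45s gene for ribosomal RNA, was covered over 98.9% or more in 24 of the 26 libraries. In stimulated CH12F3 Rad21 it was covered over 0%, 99.4%, 0% and 99.5%, so these libraries split into pairs. Reads from repeated sequences such as these cannot be placed with certainty. A 4617 bp stretch at chr1:24618397-24623013 was covered over 97.4% to 100% in all 16 Rad21 libraries and over at most 1.1% in any of the 10 NIPBL libraries. The peak lists cannot show whether its reads were placed with certainty, so it is not read as a cohesin site without NIPBL. At chr8:125224279-125226691 (2413 bp) NIPBL covered 89.9% to 100% in stimulated spleen, 96.7% to 100% in unstimulated spleen and 88.4% to 100% in CH12F3. Rad21 coverage of this second stretch was 0% in all 16 libraries. Its Rad21 peak in unstimulated spleen was among the deposited peaks but not among the strongest 20000.

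Of the 10 widest stretches, 4 lay at Cd74, MHC class II genes, Ets1 and Stk17b. The stretch at Cd74, which encodes the chain that escorts MHC class II molecules, measured 13954 bp at chr18:60962550-60976503. NIPBL covered 61.2%, 39.9% and 52.9% of it in stimulated spleen, against 96.2%, 62.8% and 68.2% in unstimulated spleen. Its Rad21 coverage was 0% in all 13 libraries outside unstimulated spleen, and 0%, 0% and 92.5% in the libraries that chose it. The stretch at chr17:34414305-34425518 (11214 bp), within the MHC class II genes, had NIPBL over 6.0%, 8.6% and 16.6% of its bases in stimulated spleen, against 37.7%, 34.2% and 35.7% in unstimulated spleen. Its Rad21 coverage was likewise 0% in all 13. At Ets1, a transcription factor gene that limits plasma cell formation, the stretch chr9:32502382-32514659 (12278 bp) had NIPBL over 13.3%, 16.2% and 11.6% of its bases in stimulated spleen, against 18.9%, 22.5% and 13.7% in unstimulated spleen. The values of both states overlap there, unlike at the MHC class II stretch. The stretch chr1:53810250-53834577 (24328 bp), across Stk17b, a kinase gene of lymphocytes, had none of its bases covered by a strongest peak in 25 of the 26 libraries, and 5.9% in unstimulated splenic Rad21 replicate 3. Its wide peak in unstimulated replicate 1 was thus outside the 20000 strongest.

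The other widest stretches lay in repeated blocks. On chromosome 8, the stretches of 33676 bp at chr8:19917189-19950864 and 29562 bp at chr8:19958436-19987997 belonged to the group of 13. In the first of these, Rad21 covered 78.2%, 0% and 98.3% in stimulated spleen, so replicate 2 stood apart. On chromosome 11, the stretches of 26381 bp at chr11:3052256-3078636, 19325 bp at chr11:3080738-3100062 and 12779 bp at chr11:3036042-3048820 belonged to the group of 7. Rad21 covered 97.3% to 99.9% of each of these 3 in every i3CBEs library, but 0%, 98.3%, 0% and 99.2% of the first in stimulated CH12F3 and 0%, 98.9% and 0% in unstimulated CH12F3. Libraries of the same group were thus at opposite ends.

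Whole groups of neighbouring stretches also differed. Over the 8 stretches of the MHC class II genes, NIPBL covered 13.7% ± 3.31 of their bases in stimulated spleen and 34.0% ± 7.70 in unstimulated spleen (SD, n = 3 each). Rad21 covered 2.90% ± 0.88 of them in stimulated spleen (SD, n = 3) and 1.36% ± 0.76 in stimulated CH12F3 (SD, n = 4). Over the 8 around Gpr183, NIPBL covered 12.7% ± 2.46 in stimulated and 19.1% ± 2.56 in unstimulated spleen (SD, n = 3 each), and Rad21 16.0% ± 4.91 in stimulated spleen (SD, n = 3) and 13.7% ± 4.64 in stimulated CH12F3 (SD, n = 4). Over the 7 in the Sp110 and Sp140 region, Rad21 covered 26.2% ± 14.9 in stimulated spleen (SD, n = 3), 8.57% ± 7.03 in i3CBEs (SD, n = 3) and 58.1% ± 3.51 in stimulated CH12F3 (SD, n = 4). A group of 7 within the replication-dependent histone genes, at chr13:23608657-23715300, was chosen after its values were seen. NIPBL covered 35.8% ± 5.75 of it in stimulated spleen, 43.5% ± 1.78 in unstimulated spleen (SD, n = 3 each), 38.0% ± 1.10 in stimulated and 42.4% ± 0.05 in unstimulated CH12F3 (SD, n = 2 each). No strongest Rad21 peak of any of the 16 libraries covered it.

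Of the IgH locus, 3 stretches were members. The one at chr12:114457937-114461762 (3826 bp, fold 32.2), downstream of the constant region genes, was covered by Rad21 in every library. The values were 66.7%, 91.8% and 93.5% in stimulated spleen and 38.5%, 44.6% and 47.8% in i3CBEs, against 77.0%, 70.8%, 80.6% and 43.1% in stimulated CH12F3. The i3CBEs values overlap those of stimulated CH12F3 through its replicate 4. In unstimulated CH12F3 they were 66.3%, 66.6% and 73.0%. NIPBL covered 41.3%, 47.3% and 37.1% of it in stimulated spleen, against 56.5%, 37.8% and 39.96% in unstimulated spleen, and the states overlap. The other two, chr12:114653481-114660340 (6860 bp, fold 4.09) and chr12:114663688-114667171 (3484 bp, fold 6.55), lie toward the joining segments, near Ighm and the intronic enhancer. The second of these had NIPBL over 29.3%, 23.2% and 28.0% of its bases in stimulated spleen, against 50.3%, 31.6% and 63.1% in unstimulated spleen. The Rad21 coverage of both was at most 1.5% in all 13 libraries outside unstimulated spleen.

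The effect of stimulation on NIPBL in spleen was tested over the whole genome in bins of 10 kb, and the bins that hold the midpoint of a stretch, 840 of them, were read from that fit. The test was limma with Benjamini-Hochberg adjustment over all bins covered in 2 or more libraries, at an adjusted p under 0.05. On simulated data this fit also called bins that had not been changed, so its adjusted p-values may be too small, and its calls below are to be read with that limit. A called bin can change through NIPBL beside the stretch as well as within it. Of 649 bins of stretches that could be tested, NIPBL coverage fell in 29 (4.47%) and rose in 2 (0.308%). Among all 18341 bins tested, 1.24% were called lower and 1.74% higher. The median difference was -3.65 percentage points in the bins of stretches, with 523 of 649 below 0, and 0 over all bins. The share of all bins below 0 is not given here. With all deposited peaks every one of the 840 bins could be tested, with 29 lower (3.45%) and 1 higher (0.119%), against 0.0348% lower and 0.564% higher among all 255822 bins. Leaving out unstimulated replicate 1, or unstimulated replicate 3, gave 46 lower, against 2.23% and 2.24% of all bins, and higher calls ran from 1 without unstimulated replicate 2 to 8 without unstimulated replicate 1, with 7 without stimulated replicate 1 and 5 without stimulated replicate 3. Over all bins the higher share in these 4 fits ran from 1.31% to 4.03%. The stretches were chosen in unstimulated cells with the other antibody, and how far that choice favours lower values in stimulated cells was not tested.

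Among the called bins, those at well known genes included Egr3, Nfatc1 and Pik3ap1. In the bin chr14:70470001-70480000, beside Egr3, a transcription factor gene induced through the antigen receptor, it covered 26.6%, 23.5% and 24.8% in stimulated spleen, against 55.1%, 59.8% and 59.0% in unstimulated spleen. The difference was -32.99 ± 1.91 percentage points (SE), with an adjusted p of 0.00424 by limma. The stretch in that bin, chr14:70473688-70476816, was itself covered over 84.6%, 75.2% and 77.2% in stimulated spleen, against 74.5%, 89.2% and 86.6% in unstimulated spleen. The states overlap within the stretch, and the difference lay beside it. In the bin chr18:80900001-80910000 at Nfatc1, a calcium-regulated transcription factor gene, it covered 8.65%, 12.8% and 11.0% in stimulated spleen, against 41.3%, 43.4% and 39.2% in unstimulated spleen, a difference of -30.46 ± 1.79 (SE; adjusted p 0.00424, limma). The stretch in that bin, chr18:80900214-80903012, was itself covered over 0% in stimulated spleen and over 11.4%, 0% and 0% in unstimulated spleen, so most of this NIPBL lay beside it. In the bin chr19:41400001-41410000 at Pik3ap1, an adaptor gene that links the antigen receptor to PI3 kinase, it covered 0% in all 3 stimulated libraries, against 21.7%, 22.1% and 12.9% in unstimulated spleen (adjusted p 0.0236, limma). There the stretch itself, chr19:41402920-41411192, was covered over 0% in stimulated spleen, against 26.3%, 26.7% and 15.6% in unstimulated spleen.

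The largest difference was in the bin chr8:86260001-86270000, with 15.4%, 3.14% and 0% in stimulated spleen, against 51.2%, 39.9% and 38.3% in unstimulated spleen (-36.99 ± 5.24, SE; adjusted p 0.0228, limma). Its neighbour chr8:86270001-86280000 was also lower, by -17.70, as were chr10:126720001-126730000 by -23.20, chr1:129410001-129420000 by -18.68 and chr8:97220001-97230000 by -17.10. Among bins named after their values were seen, those at Ets1 (chr9:32450001-32460000), beside Cxcr5, the receptor gene that guides B cells to follicles (chr9:44380001-44390000), and in the MHC class II genes (chr17:34410001-34420000) were lower by -8.70, -6.72 and -5.65. In all 3 the stimulated libraries were at 0%. NIPBL was higher in chr8:19990001-20000000, in the group of 13, with 10.8%, 14.8% and 16.3% in stimulated spleen and 0% in all 3 unstimulated libraries (adjusted p 0.0151, limma). The other rise was in chr7:148450001-148460000, with 4.93%, 6.58% and 8.68% in stimulated spleen and 0% in all 3 unstimulated libraries (adjusted p 0.0439, limma).

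**Figure D5:**
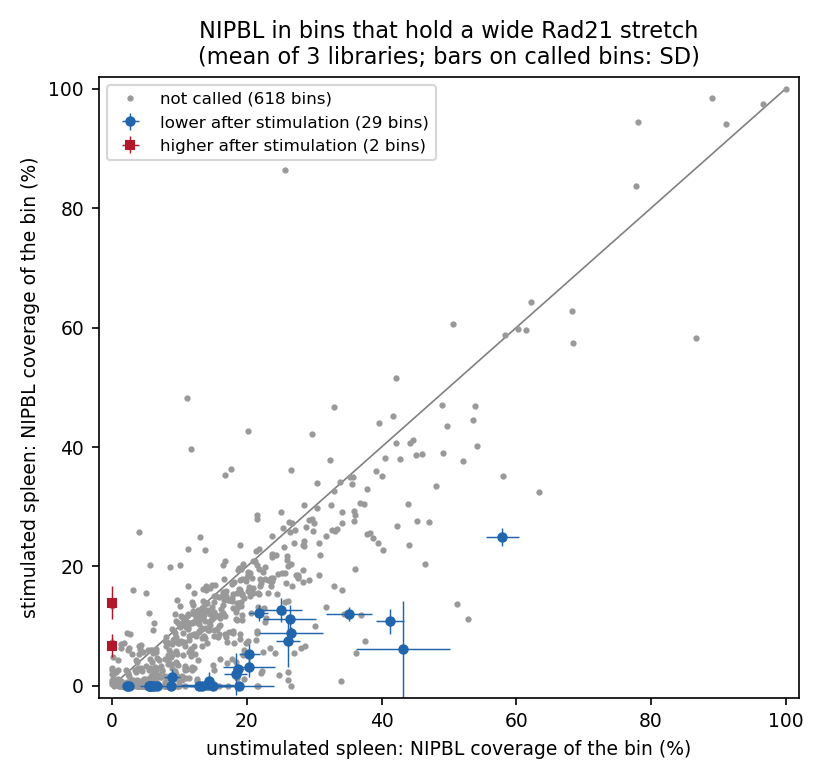
Mean NIPBL coverage of each 10 kb bin that holds the midpoint of a wide stretch, in percent, with stimulated spleen on the vertical and unstimulated spleen on the horizontal axis, 3 libraries each; called bins are marked and carry SD bars. Of the 649 bins, 523 lie below the line of equal coverage, and the share of all bins below it is not given here. Called lower are 29 (4.47%), against 1.24% of all bins, and called higher 2 (0.308%), against 1.74%.

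In CH12F3 no bin of a stretch was called for NIPBL. Of 410 tested, 0 were higher and 0 lower by limma, against 0% and 0% of all bins tested, and 1 was higher and 18 were lower where an unadjusted p under 0.05 was used. The share of all bins at that unadjusted threshold is not given here, so those counts are not read as a change. The smallest adjusted p, 0.363, was shared by 11 bins, 10 of them lower and 1 higher. The 3 of these with the smallest unadjusted p, all lower, were chr9:44410001-44420000, chr15:81970001-81980000 and chr14:103370001-103380000. In the first of these, within the Cxcr5 group, NIPBL covered 0% and 0% in stimulated CH12F3, against 20.9% and 16.7% in unstimulated CH12F3. With 2 libraries a group, a difference of this size did not pass. Whether the effect of stimulation on NIPBL differs between spleen and CH12F3 in these bins was not tested.

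Rad21 in CH12F3 was compared in a fit that also held the i3CBEs libraries. Of 355 bins tested, 0 were higher and 0 lower in stimulated CH12F3 by limma, against 0% and 0.0262% of all bins, and an unadjusted p under 0.05 gave 6 higher and 32 lower. The median difference was -0.42 percentage points, against -0.16 over all bins. With the replicate number as a block, since these numbers were taken as pairs, 0 of the 355 and 0 of all 22898 bins were called, where the fit without it called 6 of all bins lower. Libraries of unlike number also deviated together, so these pairs are uncertain. With the block, 12 bins of stretches were higher and 25 lower where the unadjusted p was under 0.05, with a median difference of -0.02 and a smallest adjusted p of 0.225 by limma. The unadjusted counts, with and without the block, have no share over all bins beside them and are not read as a change. Without the block the smallest adjusted p was 0.0557, in chr3:52240001-52250000, with 0%, 5.33%, 0% and 4.03% in stimulated CH12F3, against 11.8%, 14.6% and 15.6% in unstimulated CH12F3. Next came chr1:80750001-80760000, higher by 5.24 (adjusted p 0.0707), and chr3:96020001-96030000, lower by -10.08 (adjusted p 0.172). Without unstimulated replicate 2, 2 bins were called higher (0.575%) and 7 lower (2.01%), and calls over all 22635 bins were also more, at 18 higher (0.0795%) and 177 lower (0.782%). Without unstimulated replicate 1, 1 was called lower (0.283%), against 0.031% of all bins.

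Between i3CBEs and stimulated CH12F3, Rad21 fell in 5 of 355 bins (1.41%) and rose in 1 (0.282%) by limma, against 0.231% lower and 0.179% higher among all bins. This fit too called some unchanged bins on simulated data. The median difference was -2.26 percentage points for bins of stretches and -1.22 over all bins, and the strongest peaks covered less of the genome in i3CBEs (0.209% to 0.239%) than in stimulated CH12F3 (0.285% to 0.407%). In the Sp110 and Sp140 region, the bin chr1:87490001-87500000 had 0%, 0% and 22.5% in i3CBEs, against 91.7%, 91.6%, 81.4% and 83.0% in stimulated CH12F3 (-79.42 ± 5.60, SE; adjusted p 0.00052, limma). Its neighbour chr1:87500001-87510000 was lower by -63.12, and chr1:85240001-85250000 and chr1:85100001-85110000, in copies of the same gene family, by -85.30 and -61.16. The only lower bin outside this family, chr1:80750001-80760000, was lower by -4.25. Reads in near-identical copies cannot be placed with certainty. Rad21 coverage of the stretches at chr1:85247986-85279679, among these copies, ran from 0% to 99.5% between unstimulated CH12F3 libraries. The i3CBEs lists also had a control of their own. The part of either in these calls was not tested. The bin chr9:78320001-78330000 was higher, with 2.25%, 1.94% and 3.18% in i3CBEs and 0% in all 4 stimulated CH12F3 libraries. Leaving out a library gave 2 to 7 lower and 0 to 4 higher calls: 2 lower without i3CBEs replicate 2 or stimulated CH12F3 replicate 1 or 3, and 3 without i3CBEs replicate 1 or stimulated CH12F3 replicate 2. The rise was lost without i3CBEs replicate 2 or 3 and without stimulated CH12F3 replicate 1, 2 or 3, while 2 rises were called without i3CBEs replicate 1 and 4 without stimulated CH12F3 replicate 4. Over all bins in these fits the lower share ran from 0.00889% to 0.937% and the higher share from 0.0132% to 0.32%.

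Between stimulated spleen and stimulated CH12F3, Rad21 rose in 10 of 359 bins (2.79%) and fell in 10 (2.79%) by limma, against 2.9% higher and 3.6% lower among all bins. Both shares are near those of all bins in this fit. The stretches were chosen in unstimulated spleen, and how far that choice favours higher values in stimulated spleen was not tested. The lower bins included chr15:61810001-61820000 at Myc, the growth-control transcription factor gene, with 11.8%, 0% and 0% in stimulated spleen, against 59.7%, 52.4%, 33.9% and 56.9% in stimulated CH12F3 (-46.78 ± 9.33, SE; adjusted p 0.034, limma). The copies of the Sp140 family on chromosome 1 gave 5 of the 10 lower bins between 85100001 and 85280000, with differences of -48.98 to -96.94. Reads in these near-identical copies cannot be placed with certainty, and the part of this in the calls was not tested. Also lower were chr1:87390001-87400000 by -31.09 and chr11:3000001-3010000 by -30.40. The higher bins were led by chr10:95790001-95800000, with 17.8%, 26.04% and 23.15% in stimulated spleen, against 7.62%, 0%, 2.60% and 0% in stimulated CH12F3 (19.76 ± 3.08, SE; adjusted p 0.0269, limma). Next were chr13:43840001-43850000 by 17.24, chr5:97400001-97410000 by 15.21 and chr1:52680001-52690000 by 15.21. The bin chr17:34400001-34410000 in the MHC class II genes had 3.80%, 10.7% and 10.3% in stimulated spleen and 0% in all 4 stimulated CH12F3 libraries (adjusted p 0.034, limma). Higher calls numbered 0 without stimulated CH12F3 replicate 1, 2 or 3, 6 without its replicate 4 and 35 without stimulated splenic replicate 1, where 7.62% of all bins were also called higher. Lower calls numbered 2 without stimulated CH12F3 replicate 1, 3 without its replicate 2 or 3, and 6 without stimulated splenic replicate 2 or 3. The calls over all bins fell as well, from 668 higher and 829 lower in the main fit. Without stimulated CH12F3 replicate 1, 2 or 3 they were 0 higher and 2, 3 and 3 lower, so every lower bin left was a bin of a stretch. Without stimulated splenic replicate 2 or 3, 4.05% and 0.0761% of all bins were called lower.

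Rad21 in stimulated against unstimulated spleen was not tested, because the unstimulated libraries chose the stretches and that choice by itself favours lower values in stimulated spleen. As a description, strongest Rad21 peaks covered 8.82%, 15.2% and 10.4% of a stretch on average in stimulated spleen, against 53.3%, 42.4% and 39.6% in the libraries that chose them. The median difference over 635 bins of stretches was -13.94 percentage points.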

How the data were processed

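Peak lists of 26 libraries were used; the 5 input samples were not analysed here. Bowtie2 alignment to mm9 and MACS2 peak calling are named, without versions, per the submitters' processing notes. For each peak the authors deposited a fold enrichment (a ratio), a −log10 p-value, a −log10 q-value and a score; no replicates were pooled. These served to rank or describe peaks of 1 list at a time. Peak names show a control for the Rad21 lists and for CH12F3 NIPBL replicate 2, and none for the other NIPBL lists. Titles set the groups. Where the cell type label of a CH12F3 or i3CBEs Rad21 sample reads splenic B cells, the source and title, which give the line, were followed. Of the CH12F3 NIPBL titles only those of replicate 2 carry a number.

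The 20000 peaks with the highest −log10 p (ties by fold, then position) on 21 main chromosomes were kept per library. Each of 264200 bins of 10 kb was scored as percent covered, and limma 3.58.1 (mean-variance trend, R 4.3.3) tested those with coverage in at least 2 of the libraries fitted, with Benjamini-Hochberg adjustment over all of them. The bin holding a stretch's midpoint stands for it. The fits were tested on simulated data, where that for splenic NIPBL, and to a smaller extent those for CH12F3 and i3CBEs Rad21, also called bins that had not been changed, so their adjusted p-values may be too small. Same-numbered stimulated and unstimulated CH12F3 Rad21 libraries deviated together (r = 0.417, 0.642 and 0.371 over bins), so their numbers were taken as pairs. Replicates 1 and 3 also deviated together (0.436 and 0.352), as did stimulated 4 with unstimulated 2 (0.585). These values thus do not settle a pairing by number. The block also held the i3CBEs libraries, whose same-numbered values with stimulated CH12F3 were 0.103, 0.005 and -0.074. The report gives the fit with the replicate block beside that comparison. Alternatives were other numbers of strongest peaks, all deposited peaks, regions in place of bins, every bin a stretch overlaps, other width, overlap and neighbour limits, a replicate block and leaving out each library.

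Regions named are, by rule, the 10 widest stretches, the 5 with the highest and lowest coverage in a group, up to 8 called bins per comparison and direction with non-overlapping groups (with none called, the 3 of smallest p), the 5 largest groups, IgH stretches and those at the threshold. Stretches, comparison classes and the rule were chosen with earlier results of these data known. Sequence content was planned but not analysed here. Coverage was computed in Python 3.11.15 with pandas 2.3.3 and numpy 2.4.6, and figures were drawn with matplotlib 3.10.9.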

Additional observations from a re-analysis of the deposited data

Results flagged for a closer look

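Of 35 sets of 4 stimulated CH12F3 Rad21 values checked for a library far from the others, 3 had one. Chance would mark about 1 set in 20 if the values were independent and normally spread. That rate does not hold here, since the bins checked were picked from the fits and their values are bounded at 0% and 100%. Where the other 3 libraries are tied, any differing value is marked. In the bin chr10:95830001-95840000, replicate 2 had 7.04% of the bin covered and the other 3 had 0%. In chr16:19170001-19180000, replicate 3 had 19.52%, against 8.92% to 10.53% in the others. In chr1:85270001-85280000, replicate 3 had 80.77%, against 100% in the others. All 3 bins were among those called between stimulated spleen and stimulated CH12F3.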

How the results depend on the processing

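The values below run in the order stimulated splenic Rad21, i3CBEs Rad21, stimulated CH12F3 Rad21, unstimulated CH12F3 Rad21, stimulated splenic NIPBL, unstimulated splenic NIPBL, stimulated CH12F3 NIPBL and unstimulated CH12F3 NIPBL. The mean share of stretches overlapped was 13.7%, 15.2%, 13.0%, 13.2%, 45.7%, 56.5%, 24.7% and 34.2% with the 10000 strongest peaks. With the 40000 strongest it was 52.3%, 57.0%, 50.5%, 57.0%, 61.5%, 74.9%, 42.3% and 53.4%, and with all deposited peaks 99.2%, 70.6%, 88.9%, 92.8%, 97.9%, 99.5%, 97.8% and 98.3%. Stretches with 50% or more of their bases covered made up 9.60%, 2.53%, 7.31%, 8.24%, 15.5%, 27.7%, 9.41% and 14.1%. Mean coverage was 5.93%, 3.16%, 4.91%, 5.58%, 17.7%, 26.4%, 9.68% and 13.8% with the 10000 strongest, 23.1%, 10.8%, 17.9%, 22.3%, 23.1%, 33.9%, 16.0% and 20.6% with the 40000 strongest, and 55.3%, 13.0%, 31.4%, 38.7%, 38.3%, 51.1%, 38.1% and 40.4% with all peaks. The median width of the widest overlapping peak, averaged over libraries, was 1184.5, 198.3, 532.6, 698.5, 822.2, 1191.8, 808.2 and 871.8 bp with all peaks and 0, 0, 0, 0, 319.7, 899.2, 0 and 289 bp with the 20000 strongest. A stretch held on average 0.304, 0.353, 0.292, 0.275, 0.673, 0.812, 0.375 and 0.538 of the 20000 strongest peaks, and 2.80, 1.32, 2.11, 2.27, 2.88, 3.00, 3.06 and 3.00 of all peaks. With 390 stretches of 3000 bp or more the share in stimulated splenic NIPBL was 60.5%. With neighbours counted within 20 kb, 39.0% of stretches had one. In each of these settings unstimulated splenic NIPBL exceeded stimulated splenic NIPBL in share and coverage. Causes of these shifts were not tested beyond the larger or smaller number of peaks taken.

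The fit with the replicate block called 0 higher and 0 lower bins of stretches for NIPBL in spleen, 1 and 2 for i3CBEs against stimulated CH12F3 and 0 and 2 for stimulated spleen against stimulated CH12F3. Over all bins tested it called 0 and 0, 5 and 2, and 0 and 2 in the same order. It called 0 and 0 in both CH12F3 comparisons of stimulation. Outside CH12F3 these numbers do not pair the libraries: for NIPBL in spleen the same-numbered correlations were -0.099, -0.018 and -0.038. In CH12F3 NIPBL, with 2 pairs, the correlation was 0.313. For CH12F3 Rad21, libraries of unlike number deviated together too, so a pairing by number is uncertain there.

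With the 10000 strongest peaks, NIPBL in spleen gave 6 higher (1.10%) and 63 lower (11.5%), against 3.44% and 4.14% of all bins. For i3CBEs there was 1 lower (0.518%), against 0.477% of all bins. Stimulated spleen against stimulated CH12F3 gave 3 lower (1.55%), against 4.09% of all bins. With the 40000 strongest, Rad21 in CH12F3 gave 2 lower (0.275%), against 0.029% of all bins. For i3CBEs there were 0 higher and 11 lower (1.51%), against 0.0892% and 0.078% of all bins. Stimulated spleen against stimulated CH12F3 gave 1 higher (0.14%) and 5 lower (0.699%), against 0.0186% and 0.0443% of all bins. With all deposited peaks, NIPBL in spleen gave 1 higher (0.119%), against 0.564% of all bins. For i3CBEs there were 0 higher and 16 lower (1.93%), against 0% and 0.0418% of all bins. Stimulated spleen against stimulated CH12F3 gave 66 higher (7.86%) and 11 lower (1.31%), against 0.637% and 0.0104% of all bins. Both shares were thus above those of all bins, unlike in the main fit. The stimulated splenic Rad21 lists held 149409, 1166191 and 1236385 peaks, and those of stimulated CH12F3 95464 to 271662. The part of list length, or of the choice of stretches in spleen, was not tested. With regions in place of bins, which score the stretch itself, NIPBL in spleen gave 1 higher (0.164%) and 23 lower (3.78%) of 609. Of all regions tested, 1.44% were higher and 1.91% lower. The lower share was thus nearer to that of all regions than in the main fit on bins, with 4.47% against 1.24%. For i3CBEs there were 0 higher and 15 lower (5.23%), against 0.21% and 4.62% of all regions, so the lower share was near that of all regions. Stimulated spleen against stimulated CH12F3 gave 4 higher (1.41%), against 3.41% of all regions. The untested median difference of Rad21 in spleen was -7.25 percentage points with the 10000 strongest peaks and -52.48 with regions in place of bins.

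Leaving out each library in turn gave 1 to 8 higher and 22 to 46 lower bins for NIPBL in spleen, 0 and 0 throughout for NIPBL in CH12F3, 0 to 2 higher and 0 to 7 lower for Rad21 in CH12F3, 0 to 4 higher and 2 to 7 lower for i3CBEs, and 0 to 35 higher and 2 to 10 lower for stimulated spleen against stimulated CH12F3, and a median difference of -18.41 to -13.24 for Rad21 in spleen. Over all bins tested, the higher and lower shares ran from 1.31% to 4.03% and from 1.22% to 2.24% for NIPBL in spleen. They ran from 0% to 0.0795% and from 0% to 0.782% for Rad21 in CH12F3. For stimulated spleen against stimulated CH12F3 they ran from 0% to 7.62% and from 0.00895% to 4.05%. A lone remaining CH12F3 NIPBL library of a state was assumed to vary like the other state. Without read counts, the precision of a single covered percent is unknown.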
